A study of Mus musculus with 30 samples.

Results

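Tumours given a single intravenous dose of the unmasked positive control of a study on tumour-activated interleukin-12 (IL-12) were compared between day 7 and day 4 after the injection. The comparison was chosen from the sample titles and held 10 of the 30 libraries of the series, 5 from day 7 and 5 from day 4. All 30 tumours were grown from cells of MC38, a mouse colon carcinoma line, injected under the skin of the right flank of female C57BL/6J mice that were 10 weeks old. Treatment began when tumours reached 200 to 300 mm3, and mice received the unmasked positive control at 0.03 mg/kg, the masked surrogate mXTX301 at 0.39 mg/kg, or vehicle. The mice were killed at day 4 or day 7, which gave 6 groups of 5. The host mice kept their own immune system, stroma and vessels, so each library mixed RNA of tumour and host cells, and in such bulk RNA fewer cells of a type and less RNA per cell cannot be told apart. Polyadenylated RNA was sequenced. Total counts were 63.3 ± 13 M per library at day 4 and 63.2 ± 3.31 M at day 7 of the unmasked control (SD, n = 5 each).

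IL-12 is a heterodimeric cytokine made mainly by dendritic cells and macrophages. Its receptor, built from Il12rb1 and Il12rb2, signals through Tyk2, Jak2 and Stat4 in T cells and natural killer (NK) cells and drives them to make interferon-gamma. Interferon-gamma in turn acts through Irf1 and other factors on tumour cells, macrophages and endothelium and raises antigen presentation, T cell-attracting chemokines and nitric oxide synthase. The comparison described here asks which of these steps moved after the first days of the response, and which cells' transcripts came later.

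Levels are given in CPM, a gene's count scaled to its library's effective total (TMM-normalised), in the order of replicates 1 to 5. Each difference between days is a log2 fold change with its standard error from an edgeR quasi-likelihood fit to all 30 libraries. Its p-value is adjusted by the Benjamini-Hochberg method over the 15482 genes tested, and a gene was called when the adjusted p was under 0.05; "rose" and "fell" are used of called genes. A list level is the mean log2 CPM of the list's members in a library. Counts of called list members are to be read beside the shares over all genes, 14.4% higher and 11.5% lower. Some genes belong to more than 1 list, among them Ccl5, Ccr7, Itgam and Irf7, so the counts of different lists are not independent.

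Some libraries stood apart. Day 7 replicate 1 lay near the day 4 libraries: in 60.2% of the genes that were higher at day 7 its value was within or below the day 4 range, against 2.6% to 12.8% for the other day 7 libraries. The level of 17 skin epithelium genes was between -3.15 and -2.99 in day 4 replicates 1 to 3, 0.254 in replicate 4 and 4.15 in replicate 5. At day 7 it was -3.04, -0.432, 4.15, -2.78 and 4.99. Day 4 replicate 5 and day 7 replicates 3 and 5 were therefore rich in skin transcripts, while between 5 and 10 of the 17 genes had no read in day 4 replicates 1 to 3 and day 7 replicates 1 and 4. The skeletal muscle level was 2.79, -2.04, 2.58, 2.87 and 3.64 at day 4 and 3.23, 4.11, 4.69, 4.51 and 5.4 at day 7, lowest in day 4 replicate 2. Results below were also fitted without skin-rich libraries and with the skin level as a covariate, which gave 2140 higher and 1578 lower genes; the part of muscle was not tested. Among the marker genes of epithelial cells, which MC38 derives from, Krt8 and Krt18 reached at most 0.464 CPM in any library and Cdx2 had no read.

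The tumours changed widely between the days. Of the 15482 genes, 2230 were higher at day 7 (14.4%) and 1779 were lower (11.5%), 25.9% in all. Large changes were mostly rises: 1036 of the higher genes rose at least 2-fold, while 59 of the lower ones fell by that much. The median log2 fold change over all tested genes was 0.0328. In vehicle tumours the same interval gave 3 higher (0.0194%) and 3 lower genes (0.0194%), 0.0388% of those tested. There 2932 genes had an unadjusted p under 0.05 by the same edgeR test, against 6110 with the unmasked control. The smallest adjusted p in vehicle was 0.0491, so few calls there do not mean that little changed. Groups of 5 did not overlap for 932 genes in the higher direction (6.02%) and 1118 in the lower (7.22%). Without day 7 replicate 1 the counts were 2641 (16.9%) and 2479 (15.9%).

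The size of these counts depended on single libraries. With any of day 4 replicate 3 or day 7 replicates 2, 4 and 5 left out, 1344 to 1400 genes were called higher. Leaving out the 8 libraries richest in skin transcripts, 3 of them unmasked, left 910 higher (5.93%) and 669 lower genes (4.36%). All 3997 called genes that could be fitted there had the same sign. List counts given below without the 8 libraries are to be read beside 5.93% of all genes higher and 4.36% lower. Leaving out 12 libraries, which kept 3 against 2 unmasked ones, gave 0 calls by edgeR with 2101 genes at an unadjusted p under 0.05, and 3994 of 3997 called genes kept their sign. Both reduced fits reuse libraries of the full fit in which these genes were called. Kept signs were therefore likely beforehand and give no separate support.

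**Figure D1:**
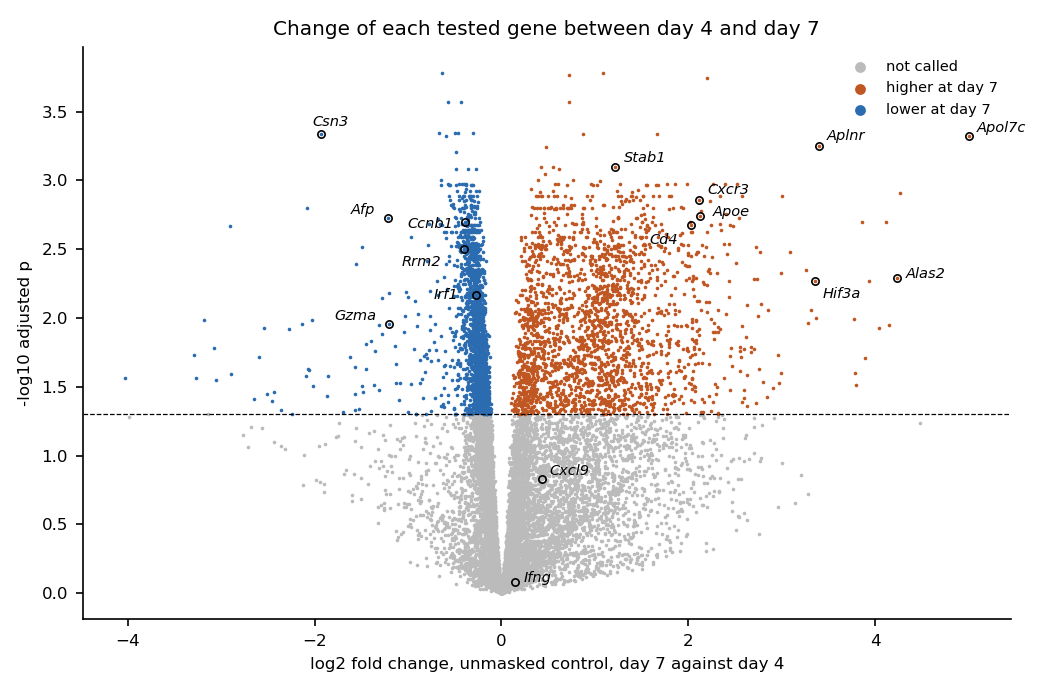
Each point is 1 of 15482 tested genes, with the log2 fold change of day 7 against day 4 of the unmasked control on the x axis and -log10 of the adjusted p on the y axis; the dashed line marks an adjusted p of 0.05. Among called genes, 1036 rises (orange) and 59 falls (blue) are at least 2-fold, Apol7c lies furthest right, and Ifng and Cxcl9 lie below the line.

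**Figure D2:**
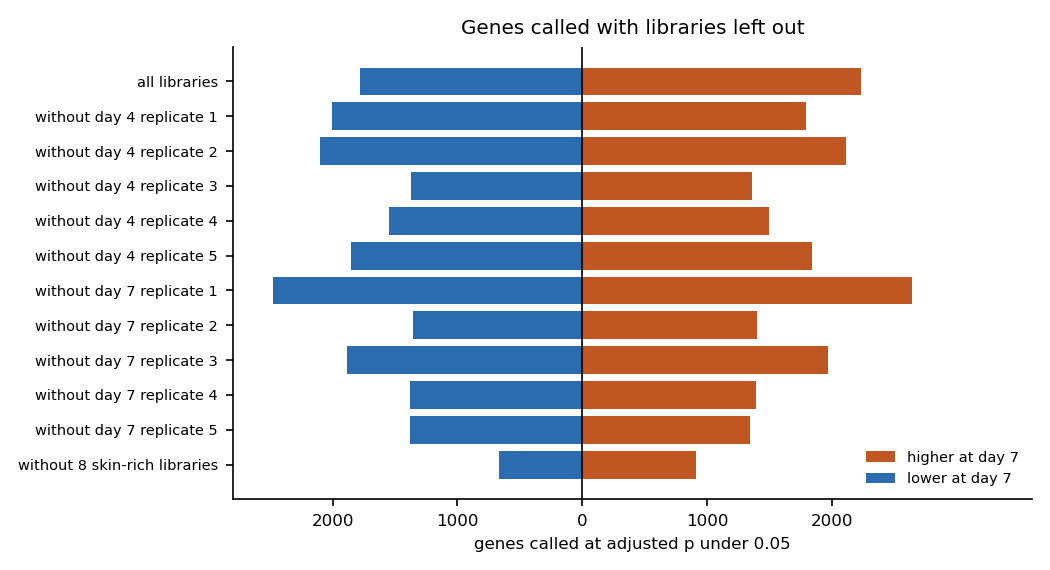
Bars show how many genes were called higher (right) or lower (left) at day 7, with all libraries, with each unmasked library left out in turn, and without the 8 skin-rich libraries. The higher count runs from 1344 to 2641 over the single omissions and is 910 without the 8 libraries.

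The interferon-gamma programme was already high at day 4 and showed no common further move. Ifng, the cytokine itself, had 3.92, 8.78, 4.54, 3.68 and 6.5 CPM at day 4 and 3.09, 5.88, 4.71, 9.07 and 7.58 CPM at day 7, where the groups overlapped almost fully (log2 fold change 0.14 ± 0.46 (SE), adjusted p = 0.837). Its mean in vehicle tumours was 0.251 CPM at day 4 and 0.254 CPM at day 7. The chemokine Cxcl9, which draws Cxcr3-bearing T cells, had 118, 243, 145, 141 and 123 CPM and then 127, 214, 213, 270.2 and 214 CPM (log2 fold change 0.43 ± 0.22 (SE), adjusted p = 0.148). Day 4 replicate 2 was as high as the day 7 libraries, and without it Cxcl9 was called (adjusted p = 0.0293). Cxcl10, another ligand of Cxcr3, was not called (log2 fold change -0.38 ± 0.16 (SE), adjusted p = 0.0809) and was called lower without day 7 replicate 3 or 4 (lowest adjusted p 0.0427).

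Among the transcription factors and effectors of the pathway, Irf1 fell. This primary interferon-gamma target had 648, 782, 813, 812 and 686 CPM at day 4 and 552, 636, 614, 689 and 597 CPM at day 7 (log2 fold change -0.28 ± 0.07 (SE), adjusted p = 0.00683), with day 7 replicate 4 reaching into the day 4 range. It stood at 333 CPM at day 4 and 277 CPM at day 7 in vehicle tumours, and its change over time did not differ detectably from the change there (difference -0.01 ± 0.1 (SE), adjusted p = 0.952). Socs1, a feedback inhibitor of the pathway, was not called (log2 fold change 0.03, adjusted p = 0.86). The nitric oxide synthase Nos2 (log2 fold change 0.31, adjusted p = 0.255), the tryptophan-degrading enzyme Ido1 (log2 fold change 0.23, adjusted p = 0.651), the checkpoint ligand Cd274 (log2 fold change 0.25, adjusted p = 0.3) and the arginine-degrading enzyme Arg1 (log2 fold change 0.39, adjusted p = 0.339) were not called either. Nos2 averaged 258 ± 54.2 CPM at day 4 and 319.8 ± 61.9 CPM at day 7 (SD, n = 5), against 45.5 CPM at day 4 and 48.3 CPM at day 7 with vehicle.

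Over the whole interferon-gamma response list, 5 of 28 members were higher and 2 lower, beside 14.4% and 11.5% of all genes, with a median log2 fold change of 0.22. Its level was between 6.8 and 7.23 at day 4 and between 6.82 and 7.47 at day 7, while vehicle libraries lay between 4.97 and 5.44. The rising members were the itaconate-making enzyme Acod1 (log2 fold change 1.12, adjusted p = 0.00377), the adhesion molecule Icam1 (log2 fold change 1.16, adjusted p = 0.00466), Slamf8 (log2 fold change 0.78, adjusted p = 0.00971), the transcription factor Irf8 and the class II transactivator Ciita. Of 17 interferon-inducible GTPases, which attack membranes around intracellular microbes, Gbp8 rose (log2 fold change 0.94, adjusted p = 0.0097) and Igtp fell (log2 fold change -0.32, adjusted p = 0.0461). Gbp2b, which has close relatives in the genome, was not called (log2 fold change 0.03, adjusted p = 0.964). Igtp lost its call without any of 5 libraries, day 4 replicates 2, 3 and 4 and day 7 replicates 2 and 5 (highest adjusted p 0.101).

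Few type I interferon or class I presentation genes were called. In the type I list 1 of 22 members was higher, Irf7 (log2 fold change 0.37, adjusted p = 0.0199), and 1 lower, the exonuclease Isg20 (log2 fold change -0.43, adjusted p = 0.0169); the median was -0.0268. In the class I list 1 of 18 was higher and 2 lower, with a median of 0.0259. Over all genes 14.4% were higher and 11.5% lower. The non-classical molecule H2-T23 rose (log2 fold change 0.66, adjusted p = 0.0431), and the immunoproteasome subunit Psmb10 (log2 fold change -0.27, adjusted p = 0.00785) and the proteasome activator Psme2 (log2 fold change -0.16, adjusted p = 0.0274) fell. The classical class I heavy chain H2-K1 had 3962, 4462, 4268, 3874 and 4113 CPM at day 4 and 4293, 4529, 3930, 4437 and 4257 CPM at day 7, with full overlap (log2 fold change 0.05 ± 0.08 (SE), adjusted p = 0.627). Irf7 lost its call without any of 5 libraries, day 4 replicates 2, 3 and 4 and day 7 replicates 3 and 4 (highest adjusted p 0.122), and H2-T23 without any of 6, day 4 replicates 1, 3 and 4 and day 7 replicates 2, 4 and 5 (highest 0.144).

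Class II presentation did rise. Class II molecules present peptides to CD4+ T cells, and their genes are switched on by Ciita through a promoter module that holds the X and Y boxes. The promoters of 2 class II chains are shown because both genes rose and both hold the Y box core CTGATTGG, in capitals. They are the 170 bases from 120 before to 50 after the start in RefSeq (GRCm38.p6), on the minus strand at chr17:34287774-34287943 for H2-Aa and on the plus strand at chr17:34305747-34305916 for H2-Eb1.
H2-Aa: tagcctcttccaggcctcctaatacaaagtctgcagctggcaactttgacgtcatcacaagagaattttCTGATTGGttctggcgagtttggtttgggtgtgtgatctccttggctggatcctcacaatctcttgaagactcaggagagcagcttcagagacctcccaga
H2-Eb1: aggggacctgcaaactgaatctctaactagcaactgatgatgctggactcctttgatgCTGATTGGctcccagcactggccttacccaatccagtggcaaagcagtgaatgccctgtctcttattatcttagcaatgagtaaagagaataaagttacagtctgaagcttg
The Y box core begins 51 bases upstream of the start in H2-Aa and 62 in H2-Eb1. It was searched on both strands and was present in 4 of the 10 class II list members that had a promoter entry, and in 3.08% of 32470 promoter windows of that length.

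H2-Ab1, the beta chain of the I-A molecule, had 234, 352, 155, 200.3 and 246 CPM at day 4 and 236, 766, 538, 828 and 580.2 CPM at day 7. The 4 other day 7 libraries were above every day 4 library, and day 7 replicate 1 lay inside the day 4 range. The rise was 2.48-fold (log2 fold change 1.31 ± 0.32 (SE), adjusted p = 0.00528). H2-Aa (log2 fold change 1.13, adjusted p = 0.00707) and H2-Eb1 (log2 fold change 1.22, adjusted p = 0.00583), whose promoters are printed above, rose with the same pattern, as did the invariant chain-cleaving protease Ctss (log2 fold change 1.25, adjusted p = 0.00326). In vehicle tumours H2-Ab1 averaged 53.3 CPM at day 4 and 36.5 CPM at day 7, and its change over time differed from that in vehicle by 1.86 ± 0.45 (SE), adjusted p = 0.0253. In all, 7 of 13 class II members were higher and 0 lower, with a median of 0.772. Leaving out the 8 skin-rich libraries gave 5 calls, beside 5.93% of all genes. Ciita itself had 24.4, 25.7, 14.2, 23.3 and 17.8 CPM and then 20.1, 46.7, 31.9, 47.8 and 33.5 CPM, overlapping through day 7 replicate 1 (log2 fold change 0.77 ± 0.25 (SE), adjusted p = 0.0279). Its call was lost without the 8 libraries (adjusted p = 0.11) and without any of day 4 replicates 3 and 5 and day 7 replicates 2, 4 and 5 (highest adjusted p 0.0959).

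**Figure D3:**
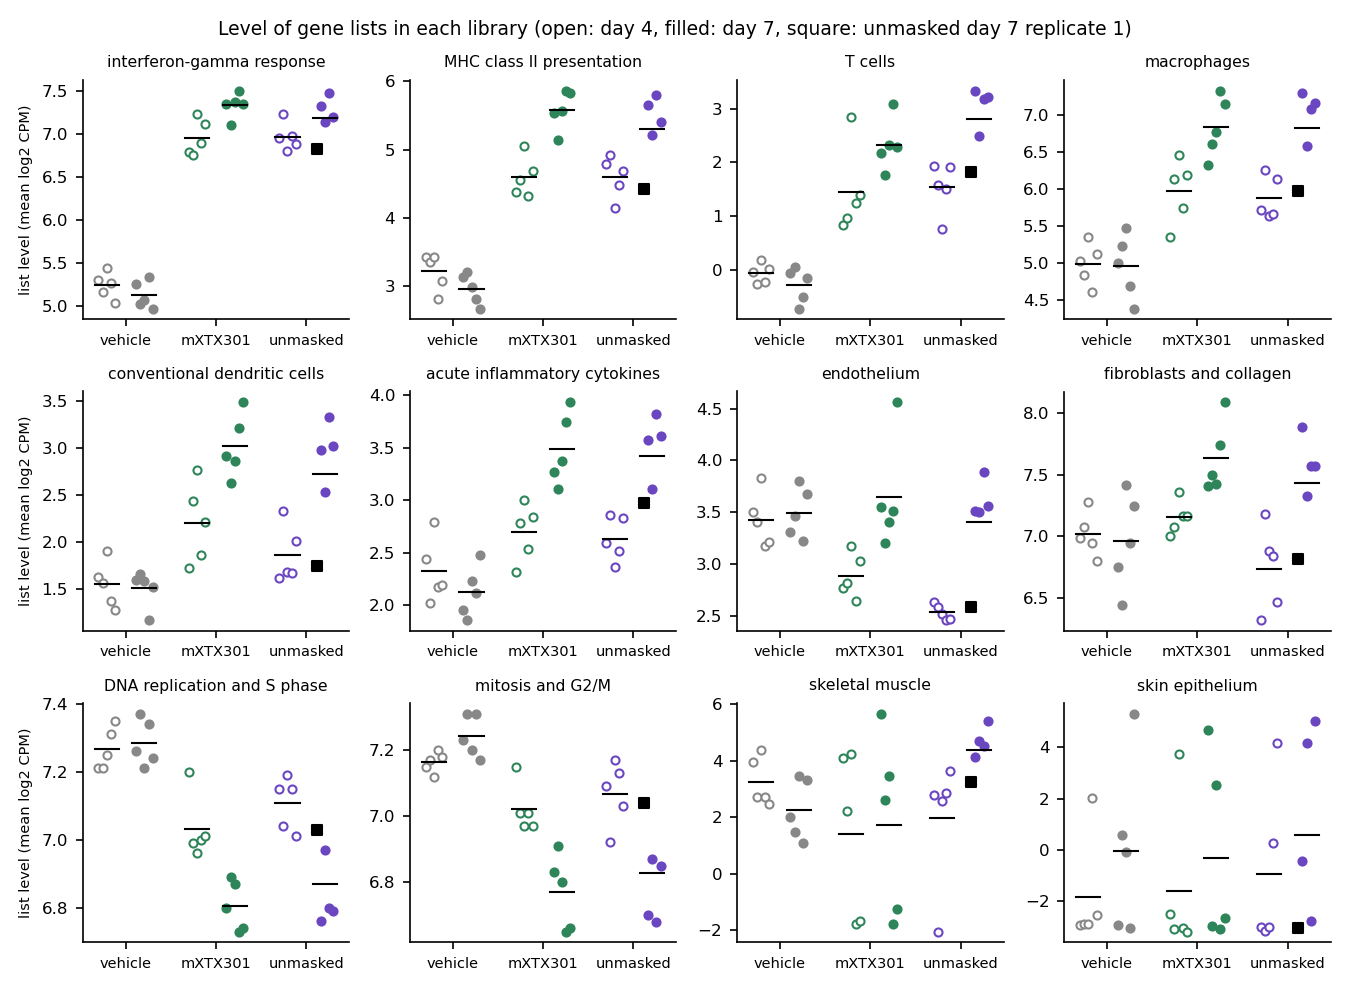
Each panel shows the level of a gene list (mean log2 CPM of its members, y axis) in all 30 libraries by treatment (x axis), with open points for day 4, filled points for day 7 and bars for group means; a black square marks unmasked day 7 replicate 1. The interferon-gamma level of unmasked libraries lies between 6.8 and 7.47 on both days, while T cell, macrophage and endothelium levels are higher at day 7 in all libraries but the square.

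Transcripts of the IL-12 receptor and its partners rose. Il12rb2, the signalling chain, had 2.99, 1.48, 0.99, 2.29 and 2.27 CPM at day 4 and 2.09, 5.78, 3.22, 5.37 and 7.09 CPM at day 7 (log2 fold change 1.23 ± 0.4 (SE), adjusted p = 0.0245). The day 7 libraries other than replicate 1 were above all day 4 libraries. Il12rb1, the shared chain, rose by less (log2 fold change 0.34, adjusted p = 0.0341), as did the transcription factor Stat4 (log2 fold change 0.94, adjusted p = 0.0309). The kinase Tyk2 (log2 fold change 0.78, adjusted p = 0.00151), the interferon-gamma receptor chain Ifngr1 (log2 fold change 0.77, adjusted p = 0.00262) and the receptor Il18r1 (log2 fold change 1.55, adjusted p = 0.0124), whose ligand IL-18 acts with IL-12 in inducing interferon-gamma, also rose. In the IL-12 and IL-18 signalling list 10 of 18 were higher and 0 lower, with a median of 0.479. When the 8 skin-rich libraries were left out, 3 of the 18 were called higher, beside 5.93% of all genes, and the median was 0.532. Over single omissions the count ran from 3 to 10. Il12rb1 lost its call without any of 8 libraries, all but day 4 replicate 2 and day 7 replicate 3 (highest adjusted p 0.117). Il12rb2 lost it without any of day 4 replicates 2 and 3 and day 7 replicates 2, 4 and 5 (highest 0.0834), and Stat4 without any of day 4 replicates 3 and 4 and day 7 replicates 2, 4 and 5 (highest 0.094).

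T cell transcripts rose as a group, 17 of the 21 tested members being higher and 0 lower (14.4% of all genes were higher), with a median log2 fold change of 1.26. One further list gene, Trat1, was too low to be tested. The level of the list was 1.94, 1.59, 0.77, 1.5 and 1.91 at day 4 and 1.83, 3.33, 2.5, 3.17 and 3.22 at day 7, where replicate 1 again lay in the day 4 range and the other 4 libraries lay above it. Vehicle libraries showed 0 of 21 called, beside 0.0388% of all genes, and a median of -0.145. Without the 8 skin-rich libraries 13 were called, and the single omissions gave 9 to 19.

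Cd8a, the co-receptor of cytotoxic T cells, had 14.5, 10.5, 4.26, 10 and 13.7 CPM at day 4 and 16.1, 53.2, 24.5, 41.9 and 46.6 CPM at day 7, with no overlap (log2 fold change 1.78 ± 0.5 (SE), adjusted p = 0.0126). Cd4, the co-receptor of helper T cells, had 1.43, 1.65, 0.63, 0.852 and 0.827 CPM and then 0.618, 4.6, 4.41, 6.86 and 5.54 CPM (log2 fold change 2.02 ± 0.41 (SE), adjusted p = 0.00212). Day 7 replicate 1 was the lowest of all 10 libraries for Cd4, and the other 4 day 7 libraries were all above the highest of day 4. In vehicle tumours Cd8a averaged 1.9 CPM at day 4 and 1.12 CPM at day 7, and Cd4 1.07 CPM at day 4 and 0.655 CPM at day 7. At day 4 Cd8a already exceeded vehicle (log2 difference 2.48, adjusted p = 0.00144), whereas Cd4 did not differ detectably from it (log2 difference 0.02, adjusted p = 0.979); at day 7 both did (log2 difference 5.01, adjusted p = 3.96e-07 for Cd8a and log2 difference 2.75, adjusted p = 1.19e-05 for Cd4). The kinase Lck, which starts T cell receptor signalling (log2 fold change 1.26, adjusted p = 0.00459), and the surface receptors Cd5 (log2 fold change 1.54, adjusted p = 0.00258) and Cd6 (log2 fold change 1.7, adjusted p = 0.00573) rose too.

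Receptors that guide T cells into tissue rose. Cxcr3, the receptor for Cxcl9 and Cxcl10, had 0.669, 1.35, 0.63, 1.04 and 1.28 CPM at day 4 and 1.29, 6.54, 3.21, 5.65 and 4.95 CPM at day 7, overlapping only in replicate 1 (log2 fold change 2.11 ± 0.39 (SE), adjusted p = 0.0014). Cxcr6, found on tissue-resident and effector T cells, rose 3.63-fold (log2 fold change 1.86 ± 0.49 (SE), adjusted p = 0.00876) with no overlap, and its ligand Cxcl16 rose by a log2 fold change of 0.99 (adjusted p = 0.0114). In the list of T cell-attracting chemokines and receptors 5 of 12 were higher and 0 lower, with a median of 0.571; without the 8 skin-rich libraries 2 were. Ccl5 (log2 fold change 0.52, adjusted p = 0.0337) lost its call without any of 8 libraries, all but day 7 replicates 1 and 5 (highest adjusted p 0.116). Ccl3 (log2 fold change 0.83, adjusted p = 0.0319) lost it without any of 6, day 4 replicates 1, 3 and 4 and day 7 replicates 2, 4 and 5 (highest 0.109).

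The list of 15 cytotoxic effectors, with which T and NK cells kill, also holds the chemokine Ccl5. In it 3 were higher (Gzmk, Ctsw and Ccl5, given above) and 1 lower, beside 14.4% and 11.5% of all genes. The higher count was 0 without any of day 4 replicates 3 and 4 and day 7 replicates 2 and 4, and 1 without any of day 4 replicates 1, 2 and 5 and day 7 replicate 5. Gzma, granzyme A, had 6.14, 5.34, 6.5, 4.04 and 8.54 CPM at day 4 and 1.62, 2.42, 2.52, 3.95 and 2.74 CPM at day 7, every day 7 library below every day 4 library (log2 fold change -1.2 ± 0.33 (SE), adjusted p = 0.0111). Its mean with vehicle was 1.3 CPM at day 4 and 1.88 CPM at day 7; at day 4 it was above vehicle (log2 difference 2.23, adjusted p = 5.2e-05) and at day 7 no longer detectably so (log2 difference 0.49, adjusted p = 0.234). The change over time differed from that in vehicle by -1.73 ± 0.47 (SE), adjusted p = 0.0366. Without the 8 skin-rich libraries the fall was not called (adjusted p = 0.098). Gzmk, granzyme K, rose, with 0.409, 0.646, 0.072, 0.41 and 0.458 CPM and then 0.267, 3.7, 0.345, 2.22 and 1.91 CPM (log2 fold change 2.07 ± 0.7 (SE), adjusted p = 0.0316); day 7 replicates 1 and 3 stayed in the day 4 range, and the call was lost without any of 7 libraries, day 4 replicates 1, 3, 4 and 5 and day 7 replicates 2, 4 and 5 (highest adjusted p 0.124). The protease Ctsw rose (log2 fold change 1.2, adjusted p = 0.0239) and lost its call without any of 6, day 4 replicates 2, 3 and 4 and day 7 replicates 2, 4 and 5 (highest adjusted p 0.0788). Granzyme B (Gzmb) had 49.9, 27.7, 31, 30.4 and 42.5 CPM at day 4 and 19.4, 18.6, 19.7, 21.6 and 33.9 CPM at day 7 (log2 fold change -0.68 ± 0.41 (SE), adjusted p = 0.221), and perforin (Prf1) was not called (log2 fold change 0.21, adjusted p = 0.779).

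NK cell receptors gave 3 of 13 tested members higher and 0 lower, beside 14.4% and 11.5% of all genes, with a median of 0.775; 2 were higher without any of day 4 replicates 2 and 3 and day 7 replicate 2. These were Klrc2 (log2 fold change 1.9, adjusted p = 0.00892), Klre1 (log2 fold change 1.32, adjusted p = 0.0223) and Klri2 (log2 fold change 1.76, adjusted p = 0.00877), members of a cluster of related genes whose reads may be shared between copies. Klre1 lost its call without day 4 replicate 2 or 3 or day 7 replicate 2 (highest adjusted p 0.076). Ncr1, the receptor that defines NK cells in mice, had 2.44, 0.467, 0.72, 1.37 and 2.71 CPM at day 4 and 0.818, 1.1, 1.15, 1.67 and 0.888 CPM at day 7 (log2 fold change -0.45 ± 0.47 (SE), adjusted p = 0.497). The T helper 1 regulator Tbx21 was not called (log2 fold change 0.73, adjusted p = 0.159). Foxp3, which defines regulatory T cells, had 0.483, 0.622, 0.792, 0.426 and 0.563 CPM and then 0.0668, 0.533, 0.809, 0.908 and 0.346 CPM (log2 fold change -0.12 ± 0.42 (SE), adjusted p = 0.86), and 1 of 12 members of the regulatory T cell list rose, Nrp1 (log2 fold change 0.7, adjusted p = 0.00159), a receptor also carried by endothelium and macrophages. The anti-inflammatory cytokine Il10 was not called (log2 fold change 0.13, adjusted p = 0.866).

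Inhibitory receptors rose in 5 of 13 tested cases with 0 lower (median 0.862), beside 14.4% of all genes higher. The list's called members included Lag3, a receptor of activated T cells that binds class II (log2 fold change 0.76 ± 0.22 (SE), adjusted p = 0.0125), Vsir, which encodes the inhibitory molecule VISTA (log2 fold change 1.29, adjusted p = 0.00258), the ectonucleotidase Entpd1 (log2 fold change 0.86, adjusted p = 0.0153) and Btla (log2 fold change 1.33, adjusted p = 0.0207). Lag3 averaged 11.1 ± 2.1 CPM at day 4 and 18.8 ± 2.37 CPM at day 7 (SD, n = 5), with 8 CPM at day 4 and 4.95 CPM at day 7 in vehicle tumours. Btla and Entpd1 lost their calls without day 4 replicate 3 or day 7 replicate 4 or 5 (highest adjusted p 0.0914 and 0.0605).

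Macrophage transcripts rose. Of 18 macrophage genes 14 were higher and 0 lower, with a median of 0.988, and 10 were called without the 8 skin-rich libraries. Csf1r, the receptor for the macrophage growth factor, had 84.7, 97.7, 58, 91.4 and 115 CPM at day 4 and 97.6, 324, 208, 312 and 322 CPM at day 7, with replicate 1 inside the day 4 range (log2 fold change 1.5 ± 0.29 (SE), adjusted p = 0.00178). Lyz2, the lysozyme of myeloid cells, had 179, 412, 266, 192 and 250 CPM and then 416, 1395, 792, 1350 and 1310 CPM (log2 fold change 2.02 ± 0.4 (SE), adjusted p = 0.00202). Its day 7 replicate 1 was level with the highest day 4 library, and the other 4 were well above. Adgre1, which encodes F4/80, rose as well (log2 fold change 1.37, adjusted p = 0.00352).

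Lipid-handling genes of macrophages also rose. Apoe, the apolipoprotein that carries cholesterol out of cells, had 362, 489, 236, 288 and 538 CPM at day 4 and 556, 2598, 1263, 1858 and 2085 CPM at day 7, every day 7 library being above every day 4 library (log2 fold change 2.13 ± 0.41 (SE), adjusted p = 0.00182). At day 4 it did not differ detectably from vehicle (log2 difference -0.25, adjusted p = 0.681) and at day 7 it was higher (log2 difference 1.97, adjusted p = 0.000416). The cholesterol exporter Abca1 (log2 fold change 1.48, adjusted p = 0.0014), the lysosomal lipase Lipa (log2 fold change 0.92, adjusted p = 0.00236) and the protease Ctsd (log2 fold change 0.95, adjusted p = 0.0014) rose. In this list 11 of 19 genes were higher and 1, Spp1, was lower (median 0.923); without the 8 skin-rich libraries 9 were higher.

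Complement genes, many of them made by macrophages, were higher in 9 of 16 cases and lower in 0 (median 0.989). Of the higher ones, C1qa, C1qb and C1qc are also counted in the macrophage list and Itgam in the monocyte list. The receptors for the activation fragments, C3ar1 (log2 fold change 0.96, adjusted p = 0.00354) and C5ar1 (log2 fold change 0.98, adjusted p = 0.0048), and properdin (Cfp; log2 fold change 1.09, adjusted p = 0.00743) were among the higher complement genes. Alternatively activated macrophage genes gave 3 of 17 higher and 0 lower, near the share of all genes: the scavenger receptor Stab1 (log2 fold change 1.22 ± 0.19 (SE), adjusted p = 0.000795), Pdgfb (log2 fold change 1.02, adjusted p = 0.00215) and Il4ra (log2 fold change 0.81, adjusted p = 0.00939). Stab1 averaged 99.7 ± 22.5 CPM at day 4 and 232 ± 68.7 CPM at day 7 (SD, n = 5).

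Inflammatory cytokines rose in 7 of 14 cases and fell in 0, with a median of 0.779. Il1b, which encodes interleukin-1 beta, had 8.5, 8.84, 5.47, 7.56 and 10.8 CPM at day 4 and 10.8, 20.8, 28.1, 39.6 and 36.4 CPM at day 7, and day 7 replicate 1 was level with the highest day 4 library (log2 fold change 1.72 ± 0.35 (SE), adjusted p = 0.00229). Nlrp3, the inflammasome sensor that leads to its cleavage, had 7.16, 8.09, 4.88, 6.38 and 9.35 CPM and then 10.5, 20.4, 16.4, 25.8 and 29.5 CPM, with no overlap (log2 fold change 1.52 ± 0.27 (SE), adjusted p = 0.0013). Tnf (log2 fold change 1.16, adjusted p = 0.00345) and Tnfaip3, the feedback inhibitor of its pathway (log2 fold change 0.76, adjusted p = 0.001), rose. At day 4 Il1b was not detectably different from vehicle (log2 difference -0.48, adjusted p = 0.33), and its change over time differed from that in vehicle by 2.33 ± 0.49 (SE), adjusted p = 0.0177.

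Monocyte genes gave 4 of 13 higher and 0 lower (median 0.45), beside 14.4% of all genes higher. Among them were the receptor chain Csf2ra (log2 fold change 1.41, adjusted p = 0.00139), Ly6i (log2 fold change 1.8, adjusted p = 0.0013), which has near copies in its gene family, the fractalkine receptor Cx3cr1 (log2 fold change 1.47, adjusted p = 0.0153) and the integrin Itgam (log2 fold change 0.89, adjusted p = 0.00764). Neutrophil genes gave 4 of 13 tested members higher and 0 lower (median 1.29), beside the same 14.4%. These were the growth factor receptor Csf3r (log2 fold change 1.71, adjusted p = 0.00206), the collagenase Mmp8 (log2 fold change 2.03, adjusted p = 0.00236), the granule protein Ngp (log2 fold change 3.09, adjusted p = 0.00332) and the chemokine Cxcl2 (log2 fold change 1.12, adjusted p = 0.0331). The list members Ltf and Camp were too low to be tested, reaching at most 0.348 and 0.145 CPM in any library. S100a8, an abundant neutrophil protein that skin also makes, was not called (log2 fold change 1.38, adjusted p = 0.0756) and became so without day 4 replicate 5 or day 7 replicate 1 (lowest adjusted p 0.0436). Cxcl2 lost its call without any of 7 libraries, all but day 4 replicate 5 and day 7 replicates 1 and 3 (highest adjusted p 0.131).

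Dendritic cell genes rose. In the conventional dendritic cell list 9 of 13 were higher and 0 lower, with a median of 1.13, and 4 were called without the 8 skin-rich libraries. Clec9a, a receptor for dead-cell actin on cross-presenting cells, had 0.279, 0.502, 0.126, 0.189 and 0.352 CPM at day 4 and 0.217, 0.913, 0.63, 1.51 and 1.38 CPM at day 7, replicate 1 lying in the day 4 range (log2 fold change 1.67 ± 0.48 (SE), adjusted p = 0.0132). Wdfy4, needed for cross-presentation (log2 fold change 0.97, adjusted p = 0.00575), the chemokine receptor Xcr1 (log2 fold change 1.7, adjusted p = 0.029) and the phagocytosis checkpoint Sirpa, which macrophages carry too (log2 fold change 1.44, adjusted p = 0.00189), rose. Xcr1 lost its call without any of 7 libraries, all but day 4 replicate 2 and day 7 replicates 1 and 3 (highest adjusted p 0.0761). The single omissions left 3 to 9 calls in this list.

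Genes of mature, migratory dendritic cells were higher in 6 of 13 cases and lower in 0 (median 0.52). Apol7c, described below, is counted among them. It was the 1 member called without the 8 skin-rich libraries, beside 5.93% of all genes. The co-stimulatory molecule Cd86 (log2 fold change 0.72, adjusted p = 0.0225) lost its call without any of day 4 replicates 3 and 4 and day 7 replicates 2, 4 and 5 (highest adjusted p 0.0791), and Cd40 (log2 fold change 0.39, adjusted p = 0.023) without any of day 4 replicates 3 and 5 and day 7 replicates 3 and 4 (highest 0.0983). Ccr7, the receptor that leads these cells to lymph nodes, had 1.43, 2.07, 1.91, 1.74 and 1.87 CPM at day 4 and 1.82, 2.08, 2.56, 3.65 and 11.3 CPM at day 7. Its call (log2 fold change 1.25, adjusted p = 0.017) rested on day 7 replicate 5, a skin-rich library; without it the log2 fold change was 0.464 and the adjusted p 0.246.

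Apol7c showed the largest rise of those named. It encodes an apolipoprotein L family member described in mouse cross-presenting dendritic cells, where it inserts into the membranes of endocytic compartments; the family has near-identical members, so reads could be shared between copies. It had 0.13, 0.155, 0.162, 0.158 and 0.088 CPM at day 4 and 0.835, 6.27, 3.54, 5.37 and 6.65 CPM at day 7, with no overlap, replicate 1 being the lowest of day 7 and still above every day 4 library. The rise was 32.1-fold (log2 fold change 5.0 ± 0.76 (SE), adjusted p = 0.000478). In vehicle tumours it averaged 0.0437 CPM at day 4 and 0.0673 CPM at day 7, and the change over time differed from that in vehicle by 4.43 ± 1.17 (SE), adjusted p = 0.0325. Its promoter is shown because it holds a match to the core of the interferon-stimulated response element, searched as GAAA, any 2 bases and GAAA. The 170 bases lie on the minus strand at chr15:77533266-77533435 (RefSeq, GRCm38.p6), and capitals mark a pair of overlapping matches on the opposite strand.
Apol7c: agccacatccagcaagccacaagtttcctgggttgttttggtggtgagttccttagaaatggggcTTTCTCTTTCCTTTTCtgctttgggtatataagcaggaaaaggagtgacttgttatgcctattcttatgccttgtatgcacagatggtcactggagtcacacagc
The matches begin 55 and 49 bases upstream of the start, and 1.72% of the 32470 promoter windows held the motif on either strand.

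Genes of lymphoid aggregates were tested for 8 of 11 members, since Ccl19, Ccl21a and Cxcr5 were too low. Of these 4 were higher and 0 lower (median 1.29), and 1 was called without the 8 skin-rich libraries. Ltb (log2 fold change 1.34 ± 0.37 (SE), adjusted p = 0.0109) and Lta (log2 fold change 1.46, adjusted p = 0.00542) encode the lymphotoxins and Ltbr their receptor (log2 fold change 0.15, adjusted p = 0.0267). Ltbr lost its call without any of 8 libraries, all but day 4 replicate 2 and day 7 replicate 5 (highest adjusted p 0.141). B cell and plasma cell genes gave 4 of 10 tested members higher and 0 lower: Cd22 (log2 fold change 1.71, adjusted p = 0.00302), Fcrla (log2 fold change 1.89, adjusted p = 0.0156), Xbp1 (log2 fold change 0.19, adjusted p = 0.0143) and Sdc1 (log2 fold change 0.22, adjusted p = 0.0493). The defining B cell gene Ms4a1 reached at most 0.196 CPM in any library and was not tested, and Sdc1 lost its call without any of 9 libraries, all but day 4 replicate 2 (highest adjusted p 0.185). Plasmacytoid dendritic cell genes gave 1 of 9 higher, Irf7, and mast cell genes 1 of 11, Hpgds (log2 fold change 1.35, adjusted p = 0.00645), which macrophages also express. The counts of this paragraph stand beside 14.4% of all genes higher.

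Endothelial transcripts were below vehicle at day 4 and rose by day 7. The list, which marks the lining of blood vessels, had 17 of 20 members higher and 0 lower, with a median of 0.862. Its level was 2.63, 2.59, 2.52, 2.46 and 2.47 at day 4 and 2.59, 3.51, 3.5, 3.89 and 3.56 at day 7, replicate 1 again matching day 4, while vehicle libraries were between 3.17 and 3.83 on both days. Every unmasked day 4 library was thus below every vehicle library, and the 4 other day 7 libraries were in or above the vehicle range. In vehicle 0 of 20 members were called over the interval, beside 0.0388% of all genes, and the median was 0.115. Without the 8 skin-rich libraries 6 were called, and the single omissions gave 10 to 17.

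Aplnr, the apelin receptor of growing vessels, had the largest log2 fold change of this list. Its libraries held 0.669, 0.287, 0.432, 0.647 and 0.739 CPM at day 4 and 1.02, 3.88, 7.72, 9.5 and 7.01 CPM at day 7, with no overlap, a 10.5-fold rise (log2 fold change 3.4 ± 0.52 (SE), adjusted p = 0.000562). Vehicle tumours averaged 7.49 CPM at day 4 and 7.35 CPM at day 7. The unmasked control was thus far below vehicle at day 4 (log2 difference -3.76, adjusted p = 1.72e-05) and not detectably different at day 7 (log2 difference -0.34, adjusted p = 0.586), and the changes over time differed by 3.42 ± 0.69 (SE), adjusted p = 0.0177. Kdr, the main receptor for vascular endothelial growth factor, had 8.18, 5.43, 6.08, 6.69 and 7.87 CPM and then 9.25, 16.1, 17.2, 26.3 and 19.7 CPM, with no overlap (log2 fold change 1.37 ± 0.26 (SE), adjusted p = 0.00142); against vehicle it was lower at day 4 (log2 difference -1.42, adjusted p = 0.000276) and not detectably different at day 7 (log2 difference -0.27, adjusted p = 0.388). Sox18 (log2 fold change 1.33, adjusted p = 0.00142) and the receptor kinase Tie1 (log2 fold change 1.15, adjusted p = 0.00239) also rose. Vegfa, a ligand of the Kdr receptor, was the only called member of the 20 glycolysis and hypoxia genes (log2 fold change 0.44 ± 0.12 (SE), adjusted p = 0.00939), and its call was lost without the 8 skin-rich libraries (adjusted p = 0.145).

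Mest, an imprinted gene of mesenchyme, rose and yet stayed far below vehicle. It had 2.03, 1.09, 1.35, 2.4 and 1.92 CPM at day 4 and 2.74, 4.38, 6.99, 4.53 and 6.18 CPM at day 7, with no overlap (log2 fold change 1.5 ± 0.3 (SE), adjusted p = 0.00199), while vehicle averaged 20.7 CPM at day 4 and 25.1 CPM at day 7. Against vehicle the unmasked control was lower at both days (log2 difference -3.56, adjusted p = 1.1e-08 at day 4 and log2 difference -2.34, adjusted p = 1.14e-06 at day 7).

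Fibroblast and collagen genes gave 6 of 20 higher and 0 lower (median 0.713), beside 14.4% of all genes higher. Without the 8 skin-rich libraries 2 were higher, beside 5.93% of all genes. The called members include Thy1, which is also counted in the T cell list. Fap, the protease of activated fibroblasts, had 1.06, 1.53, 0.9, 0.821 and 0.986 CPM at day 4 and 1.19, 4.79, 2.13, 4.64 and 2.98 CPM at day 7, replicate 1 lying in the day 4 range (log2 fold change 1.57 ± 0.36 (SE), adjusted p = 0.00377). The receptor Pdgfrb (log2 fold change 0.6, adjusted p = 0.00394), smooth muscle actin Acta2 (log2 fold change 1.46, adjusted p = 0.0106) and the collagen chain Col6a3 (log2 fold change 0.47, adjusted p = 0.0269) rose, Col6a3 losing its call without any of day 4 replicates 1 and 5 and day 7 replicates 3 and 4 (highest adjusted p 0.0826). The main fibrillar collagen Col1a1 had 215, 916, 592, 442 and 294 CPM and then 384, 1313, 681, 779 and 1122 CPM (log2 fold change 0.8 ± 0.37 (SE), adjusted p = 0.106); it was called without day 4 replicate 2 or day 7 replicate 1 (lowest adjusted p 0.0264).

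Matrix-cutting proteases rose with 8 of 18 higher and 0 lower (median 0.543). The macrophage elastase Mmp12 had 50.4, 64.2, 37.7, 46.3 and 50.9 CPM at day 4 and 108, 198, 73.2, 166 and 178 CPM at day 7, with no overlap (log2 fold change 1.53 ± 0.31 (SE), adjusted p = 0.00224). The membrane-bound Mmp14 (log2 fold change 0.55, adjusted p = 0.00373), the plasminogen activator Plau (log2 fold change 0.77, adjusted p = 0.00257) and the neutrophil collagenase Mmp8, given above, were also higher, and outside the list Mmp27 was among the largest rises (log2 fold change 2.57 ± 0.46 (SE), adjusted p = 0.0013).

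**Figure D4:**
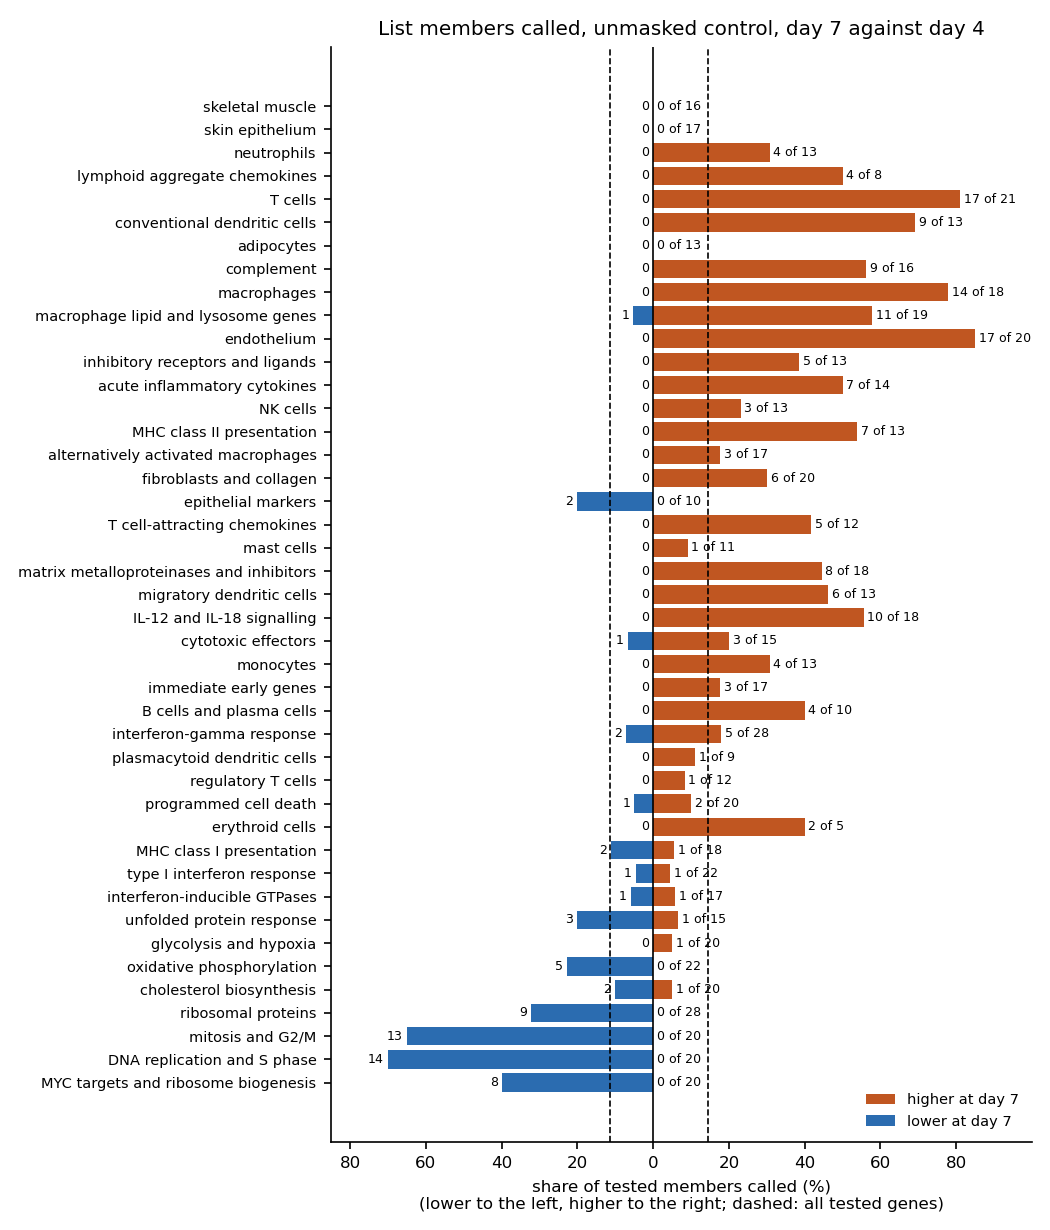
Bars show the share of tested members (x axis, in %) called higher (right) or lower (left) at day 7 for 43 gene lists, ordered by median log2 fold change, with the number called beside each bar; dashed lines mark 14.4% and 11.5%, the shares over all tested genes. Endothelium (17 of 20), T cells (17 of 21) and macrophages (14 of 18) reach furthest to the right and DNA replication (14 of 20) and mitosis (13 of 20) furthest to the left.

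Genes of the cell cycle fell, by small amounts. Of 20 genes of DNA replication and S phase 14 were lower and 0 higher (11.5% of all genes were lower), with a median log2 fold change of -0.243. Of 20 mitosis and G2/M genes 13 were lower and 0 higher, with a median of -0.233. In vehicle the medians were 0.0347 and 0.0757. In the fit lacking the 8 skin-rich libraries 10 and 5 were lower, beside 4.36% of all genes, and the single omissions gave 9 to 15 and 10 to 17.

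Promoters of 3 mitotic genes that fell are shown, because genes of this phase often share CCAAT boxes, bound by NF-Y, and a cell cycle homology region (CHR), TTTGAA, through which the DREAM complex represses them. Both motifs are in capitals, on either strand (a CCAAT on the opposite strand reads ATTGG). All 3 stretches are on the minus strand of GRCm38.p6 (RefSeq), at chr9:70421505-70421674 for Ccnb2, chr10:69352863-69353032 for Cdk1 and chr2:172370521-172370690 for Aurka.
Ccnb2: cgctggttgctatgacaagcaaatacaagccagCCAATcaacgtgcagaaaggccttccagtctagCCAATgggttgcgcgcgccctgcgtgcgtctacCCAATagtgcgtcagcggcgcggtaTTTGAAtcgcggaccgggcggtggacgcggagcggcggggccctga
Cdk1: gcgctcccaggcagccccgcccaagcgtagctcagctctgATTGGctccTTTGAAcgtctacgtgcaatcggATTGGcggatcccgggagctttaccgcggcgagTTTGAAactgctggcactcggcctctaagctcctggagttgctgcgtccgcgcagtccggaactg
Aurka: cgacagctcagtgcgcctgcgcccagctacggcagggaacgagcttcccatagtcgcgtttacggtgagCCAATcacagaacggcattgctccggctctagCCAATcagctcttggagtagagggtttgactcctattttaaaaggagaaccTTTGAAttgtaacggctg
Among the mitosis genes with a promoter entry, 14 of 17 held CCAAT and 12 of 17 held TTTGAA, whether or not they fell. In all 32470 windows the shares were 25.5% and 9.07%, and 0.548% held at least 2 CCAAT and a TTTGAA.

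Ccnb2, a cyclin of mitotic entry, had 77.9, 74.3, 87.9, 84 and 78.6 CPM at day 4 and 74.2, 58.8, 63, 54.5 and 59.9 CPM at day 7, every day 7 library below the lowest of day 4, replicate 1 only just (log2 fold change -0.38 ± 0.1 (SE), adjusted p = 0.00776). Its kinase Cdk1 (log2 fold change -0.3, adjusted p = 0.00359), the spindle kinase Aurka (log2 fold change -0.32, adjusted p = 0.00513) and the cyclin Ccnb1 (log2 fold change -0.39, adjusted p = 0.00199) fell. Rrm2, the ribonucleotide reductase subunit that supplies DNA precursors, had 382, 310.1, 373, 388 and 352 CPM and then 309, 261, 292, 239.6 and 267 CPM, with no overlap (log2 fold change -0.4 ± 0.09 (SE), adjusted p = 0.00317). The helicase subunits Mcm5 (log2 fold change -0.24, adjusted p = 0.00645) and Mcm7 (log2 fold change -0.32, adjusted p = 0.00354) fell. At day 4 Rrm2 did not differ detectably from vehicle (log2 difference -0.16, adjusted p = 0.198), and at day 7 it was lower (log2 difference -0.5, adjusted p = 6.46e-05). Mki67, the common proliferation marker, had 436, 366, 428, 450.1 and 373 CPM at day 4 and 459, 340.1, 427, 387 and 435 CPM at day 7, fully overlapping (log2 fold change -0.00 ± 0.12 (SE), adjusted p = 0.986). Without the 8 skin-rich libraries Cdk1 and Ccnb2 were not called (adjusted p = 0.0654 and 0.062).

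Genes of ribosome production fell too, with list medians of the same sign in vehicle tumours. Among MYC targets and ribosome biogenesis genes 8 of 20 were lower and 0 higher (median -0.26), and 3 without the 8 skin-rich libraries. The nucleolar proteins Nop16 (log2 fold change -0.46, adjusted p = 0.00212), Fbl (log2 fold change -0.33, adjusted p = 0.00464), Pes1 (log2 fold change -0.3, adjusted p = 0.00895) and Nop58 (log2 fold change -0.31, adjusted p = 0.0111) were among them. Ribosomal proteins gave 9 of 28 lower and 0 higher (median -0.225), for example Rplp0 (log2 fold change -0.34, adjusted p = 0.0185), but 0 without the 8 skin-rich libraries and 1 to 18 over the single omissions. Oxidative phosphorylation gave 5 of 22 lower and 0 higher (median -0.165), with small changes such as Atp5b (log2 fold change -0.25, adjusted p = 0.0172), and likewise 0 without the 8 libraries. In vehicle tumours the medians were -0.198 for ribosome biogenesis, -0.195 for ribosomal proteins and -0.11 for oxidative phosphorylation. In each of these lists 0 members differed from vehicle in their change over time, beside 5.15% of all genes. The count was also 0 for IL-12 and IL-18 signalling, complement, conventional dendritic cells, lymphoid aggregates and NK cells. Of the rising lists, macrophages had 1 of 18 such members, endothelium 2 of 20, T cells 4 of 21 and class II 5 of 13. DNA replication had 3 of 20 and mitosis 5 of 20, all more negative than in vehicle.

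In the unfolded protein response list, 3 of 15 were lower: Chac1 (log2 fold change -0.6, adjusted p = 0.00239), Asns (log2 fold change -0.37, adjusted p = 0.00968) and Trib3 (log2 fold change -0.31, adjusted p = 0.0128), targets of the transcription factor Atf4 that respond to amino acid shortage. The same 3 were called without the 8 skin-rich libraries. Xbp1 was higher, as given above. The counts of this paragraph stand beside 14.4% of all genes higher and 11.5% lower. Cholesterol synthesis gave 1 of 20 higher, Tm7sf2 (log2 fold change 0.83, adjusted p = 0.00615), and 2 lower, Fdft1 (log2 fold change -0.4, adjusted p = 0.04) and Hsd17b7 (log2 fold change -0.35, adjusted p = 0.0323). Programmed cell death gave 2 of 20 higher, the death receptor Fas (log2 fold change 0.67, adjusted p = 0.00977) and the pore former Gsdmd (log2 fold change 0.59, adjusted p = 0.00372), and 1 lower, the necroptosis effector Mlkl (log2 fold change -0.17, adjusted p = 0.0401). Immediate early genes gave 3 of 17 higher, Egr3 (log2 fold change 1.35, adjusted p = 0.00449), Btg2 (log2 fold change 1.02, adjusted p = 0.00701) and Egr2 (log2 fold change 0.97, adjusted p = 0.00782), beside 14.4% of all genes. Epithelial markers gave 2 of 10 lower, Elf3 (log2 fold change -1.13, adjusted p = 0.0298) and Ocln (log2 fold change -0.87, adjusted p = 0.0298), and 0 higher, beside 11.5% of all genes lower; the median of the list was 0.647, with the skin level as a covariate 0.223 and without the 8 skin-rich libraries -0.33. Fdft1, Hsd17b7 and Mlkl each lost their call without any of day 4 replicates 3 and 4 and day 7 replicates 2 and 5 (highest adjusted p 0.132, 0.0973 and 0.0867).

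**Figure D5:**
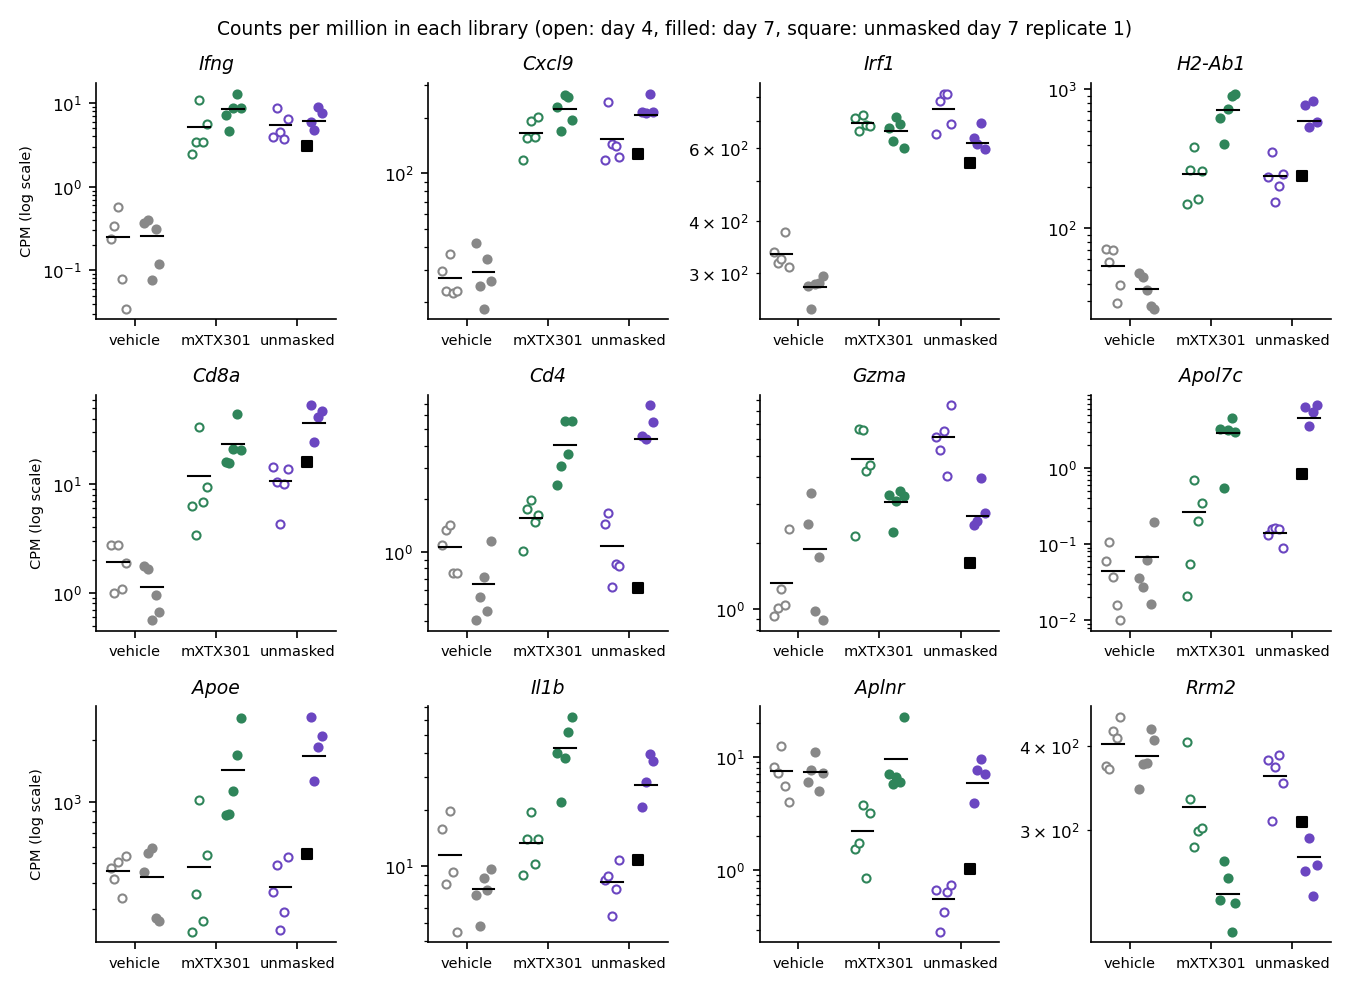
Each panel shows the CPM of a gene (y axis, log scale) in all 30 libraries by treatment (x axis), with open points for day 4, filled points for day 7, bars for group means and a black square for unmasked day 7 replicate 1; a library without a read is drawn at the lowest point of its panel. Ifng overlaps between the days, Gzma and Rrm2 are lower at day 7 in every unmasked library, and Apol7c and Aplnr are higher in every one.

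Other large rises were less even between libraries. The monocyte and macrophage receptor Adgre4 had 0.223, 0.203, 0.126, 0.174 and 0.106 CPM at day 4 and 0.501, 0.807, 1.12, 2.77 and 1.58 CPM at day 7, with no overlap (log2 fold change 3.01 ± 0.55 (SE), adjusted p = 0.0013). Nov, a secreted matrix protein of the CCN family, had 0.614, 3.77, 1.15, 1.36 and 0.299 CPM and then 1.82, 16, 11, 8.56 and 11 CPM (log2 fold change 2.73 ± 0.66 (SE), adjusted p = 0.00521), with day 7 replicate 1 in the day 4 range. Tacr1, the receptor for substance P, had 0.391, 0.514, 0.45, 0.41 and 0.44 CPM and then 0.751, 2.31, 2.4, 4.79 and 2.69 CPM, with no overlap (log2 fold change 2.55 ± 0.51 (SE), adjusted p = 0.00187), and Wdr95 rose by a log2 fold change of 2.76 (adjusted p = 0.00332). Smyd1, a methyltransferase of striated muscle, had 0.223, 0.0239, 0.198, 0.426 and 0.739 CPM and then 0.785, 2.27, 1.89, 2.32 and 3.63 CPM (log2 fold change 2.76 ± 0.88 (SE), adjusted p = 0.0234), lowest in day 4 replicate 2 and highest in day 7 replicate 5, as the skeletal muscle level was; it lost its call without day 4 replicate 3 or day 7 replicate 5 (highest adjusted p 0.0604).

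Single libraries carried 4 of the largest rises. Hif3a, a hypoxia-inducible factor subunit, reached 5.53 CPM in day 7 replicate 1 and at most 0.411 CPM elsewhere among the unmasked libraries. Without that library its log2 fold change was 1.09 and the adjusted p 0.151. Alas2, which starts haem synthesis in red cell precursors, had 58.0 CPM in day 7 replicate 4 and at most 3.73 CPM in the others, and the red cell anion exchanger Slc4a1 followed it with 5.28 CPM there. Without replicate 4 they had log2 fold changes of 1.49 (adjusted p = 0.135) and 1.98 (adjusted p = 0.0827). The haemoglobin genes had no read in any library, so the erythroid list rested on 5 tested members, of which these were the only called ones. Apol11b, another apolipoprotein L gene, was also carried by replicate 4, with 13.1 CPM, and gave 0.82 (adjusted p = 0.0688) without it.

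Falls of comparable size were fewer. Csn3, which encodes kappa-casein, had 2.55, 1.29, 1.73, 1.37 and 1.92 CPM at day 4 and 0.384, 0.441, 0.525, 0.437 and 0.527 CPM at day 7, with no overlap (log2 fold change -1.93 ± 0.29 (SE), adjusted p = 0.00046). Tex11, a gene of meiosis, had 2.9, 0.443, 1.28, 3.27 and 1.62 CPM and then 0.167, 0.578, 0.69, 0.404 and 0.316 CPM, overlapping through day 4 replicate 2 (log2 fold change -2.13 ± 0.59 (SE), adjusted p = 0.011). Afp, the fetal liver protein alpha-fetoprotein, had 23.1, 15, 18.9, 16.2 and 26 CPM and then 11.5, 7.95, 9.28, 7.54 and 6.59 CPM, again with no overlap (log2 fold change -1.21 ± 0.24 (SE), adjusted p = 0.00188). The calcium-binding protein S100a3 (log2 fold change -1.56, adjusted p = 0.00407), Aipl1 (log2 fold change -1.21, adjusted p = 0.00664), Hpdl (log2 fold change -1.0, adjusted p = 0.007) and Prrg4 (log2 fold change -0.97, adjusted p = 0.00257) fell as well. At higher levels, the histone demethylase Kdm1b (log2 fold change -0.8, adjusted p = 0.00384), the apoptotic nuclease Dffb (log2 fold change -0.79, adjusted p = 0.00296), Fam159b (log2 fold change -0.77, adjusted p = 0.00206), Rtkn2 (log2 fold change -0.71, adjusted p = 0.0111) and Calr3 (log2 fold change -0.68, adjusted p = 0.00191) fell, each with the groups of 5 not overlapping.

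Tissue around the tumour was measured through 3 lists without called members. Skin epithelium had 0 of 17 called in either direction and a median of 1.44, with Krt17 at 1.49 (adjusted p = 0.358) and Sprr1b at 3.14 (adjusted p = 0.221). Skeletal muscle had 0 of 16 called and a median of 1.79, and in day 4 replicate 2 Myh4, Myl1 and Pvalb had no read; in vehicle its median was -0.855. Adipocytes had 0 of 13 called and a median of 1.13. Without the 8 skin-rich libraries the median log2 fold change was 1.3 for the T cell list, 1.04 for macrophages, 0.778 for endothelium and 0.583 for fibroblasts and collagen. With the skin level as a covariate these medians were 1.21, 1.01, 0.866 and 0.753, and 15 of 21, 13 of 18, 17 of 20 and 6 of 20 members were higher. The part of muscle and adipocytes in these rises was not tested.

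Of the 159 called genes in the named set, 52 lost their call without the 8 skin-rich libraries. Beside those given above, these were Acsm3, Acta2, Adgrl3, Atp5a1, Atp5b, Btla, Ccl3, Ccl5, Ccr7, Cd40, Cd86, Clec9a, Col6a3, Cx3cr1, Cxcl16, Cxcl2, Egr2, Fcrla, Fdft1, Fmod, H2-T23, Hsd17b7, Igtp, Il12rb1, Il12rb2, Il18, Il4ra, Irf7, Isg20, Lta, Ltbr, Mlkl, Ndufs1, Ndufs4, Ocln, Pes1, Psmb10, Psme2, Rpl18, Rpl27, Rpl5, Rplp0, Sdc1, Slc5a4a, Stat4, Xbp1 and Xcr1, with adjusted p-values from 0.0504 to 0.383 there. Fcrla also lost its call without day 7 replicate 4 (adjusted p 0.0547), Xbp1 without day 4 replicate 2 or 5 or day 7 replicate 4 (highest 0.0708), Ocln without any of day 4 replicates 1 and 5 and day 7 replicates 2 and 4 (highest 0.0764), and Elf3 without any of those or day 7 replicate 1 (highest 0.0801).

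Set against vehicle, 457 genes changed more positively over time with the unmasked control (2.95%) and 341 more negatively (2.2%), 5.15% in all. These counts depended on single libraries: they ran from 71 (without unmasked day 7 replicate 2) to 1301 (without vehicle day 4 replicate 5) and from 57 (without vehicle day 7 replicate 4) to 1724 (again without vehicle day 4 replicate 5). Without the 8 skin-rich libraries they were 73 and 52. Positive differences included Apol7c, Aplnr and Cd4, given above, and Fmod, a collagen-binding proteoglycan (3.26 ± 0.94 (SE), adjusted p = 0.0429), Nov (3.03 ± 0.91 (SE), adjusted p = 0.0492) and Tacr1 (2.54 ± 0.69 (SE), adjusted p = 0.0347). Negative ones included Tex11 (-2.96 ± 0.82 (SE), adjusted p = 0.0373), the adhesion receptor Adgrl3 (-2.06 ± 0.6 (SE), adjusted p = 0.0435), Acsm3 (-2.02 ± 0.57 (SE), adjusted p = 0.0396), the guidance receptor Robo1 (-2.0 ± 0.59 (SE), adjusted p = 0.0463), Slc5a4a (-1.99 ± 0.46 (SE), adjusted p = 0.0215) and Csn3 (-1.92 ± 0.4 (SE), adjusted p = 0.0177). Robo1 was not called between the days of the unmasked control itself (log2 fold change -0.89, adjusted p = 0.111), and Acsm3 (log2 fold change -1.4, adjusted p = 0.0146) lost that call without day 4 replicate 4 (adjusted p 0.0557). Slc5a4a has a near copy, with which reads may be shared.

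With mXTX301 the same interval gave 1220 higher (7.88%) and 1022 lower genes (6.6%). T cells were higher in 1 of 21 cases there, endothelium in 14 of 20, macrophages in 9 of 18 and class II in 9 of 13, and DNA replication was lower in 11 of 20. The low T cell count does not mean that the list stayed level. Its median log2 fold change with mXTX301 was 0.704, against 1.26 with the unmasked control. Its level averaged 1.46 ± 0.804 at day 4 and 2.32 ± 0.478 at day 7 with mXTX301 (SD, n = 5), and day 4 replicate 3 stood at 2.84. A direct test of the difference in change between the unmasked control and mXTX301 called 0 genes by edgeR, with 1796 at an unadjusted p under 0.05 and a smallest adjusted p of 0.258. By DESeq2 5 genes were more positive and 7 more negative, and limma-voom called 0 in either direction. A fit to the 20 libraries of that contrast alone called 132 and 234. Cd8a, for example, averaged 11.9 CPM at day 4 and 23.5 CPM at day 7 with mXTX301 (log2 fold change 0.98, adjusted p = 0.17), and Gzma 4.85 CPM at day 4 and 3.08 CPM at day 7 (log2 fold change -0.65, adjusted p = 0.171). The doses differed, 0.03 against 0.39 mg/kg.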

How the data were processed

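The authors deposited whole-number counts per gene for 24557 entries and 30 libraries. The submitters' processing notes name the mm10 build and, without roles, STAR 2.7.10a, HTSeq 0.11.1, edgeR 3.34.0, R 4.1.0, FastQC 0.11.9 and cutadapt. Per the labels' protocols, tumours were homogenised in a bead mill and RNA was taken with a NucleoSpin kit. Strand is not stated, so overlapping and antisense genes cannot be told apart. The deposited table of normalised values was not used.

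Here 5 repeated symbols were dropped, filterByExpr kept 15482 genes, and group means of the 30 libraries were estimated after TMM scaling, with the robust quasi-likelihood test of edgeR 4.0.16 (R 4.3.3; 24 residual degrees of freedom; biological coefficient of variation 27.3%). Alternatives used limma 3.58.1 and DESeq2 1.42.0. List levels used a prior count of 2. The script was tested on simulated data. The labels number the libraries as replicates without naming the mouse, so p-values measure the spread between these libraries, which may be partly technical. None of the 435 pairs of the 30 libraries agreed within sampling noise (chi-square per gene at least 12.5).

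The comparison, the 43 lists and the panel of 30 genes were chosen with earlier results of these data known. Named genes were the panel, the 12 largest called rises and falls at 1 CPM or more, up to 4 called members per list (2 uncalled where none was called) and 6 genes each way for the difference from vehicle. The rises and falls also had to be called without skin-rich libraries. With the planned 12 left out no gene was called, so the 8 above the second widest gap in skin level (0.599 to 2.01) were used, chosen after seeing this. Irf8, Spp1, Trat1, Thy1, C1qa, C1qb, C1qc, and genes named as at or near 0 were named after their values were seen. A few genes that the rule chose are not reported here. Promoters came from RefSeq (GRCm38.p6).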

Additional observations from a re-analysis of the deposited data

Results flagged for a closer look

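The change over time differed between the unmasked control and vehicle in 47 of the 183 named genes, by the edgeR test of that difference adjusted over all 15482 genes, of which 5.15% differed. Of the 47, 12 met the part of the naming rule that used this test, and Fmod, Adgrl3, Acsm3, Robo1 and Slc5a4a were named by that part alone. Most of the others were named for their change between the days of the unmasked control, which is 1 side of this difference. The share was therefore raised by the choice and cannot be compared with 5.15%. Here each gene is followed by the log2 difference between the changes, unmasked control minus vehicle, and the adjusted p. More positive with the unmasked control were, among presentation and T cell genes, H2-Ab1 (1.86, 0.0253), H2-Aa (1.77, 0.0222), H2-Eb1 (1.81, 0.0236), Ctss (1.32, 0.0468), Cd8a (2.53, 0.0441), Cd4 (2.73, 0.0177), Cd5 (1.97, 0.0231), Lag3 (1.46, 0.0177), Btla (2.28, 0.0316), Ccl5 (1.06, 0.0252), Cxcr3 (2.48, 0.0211), Fcrla (3.13, 0.0271) and Cd86 (1.17, 0.0373). Myeloid and inflammatory genes in this direction were Apol7c (4.43, 0.0325), Apoe (2.22, 0.0305), Acod1 (1.24, 0.0472), Stab1 (1.23, 0.0203), Ly6i (1.95, 0.0252), Csf2ra (1.46, 0.028), Csf3r (2.08, 0.0224), Tnfaip3 (0.64, 0.0389), Nlrp3 (1.36, 0.04) and Il1b (2.33, 0.0177). Vessel, stromal and other genes were Aplnr (3.42, 0.0177), Sox18 (1.15, 0.0498), Vegfa (0.73, 0.0215), Fap (1.9, 0.0325), Plau (0.78, 0.0463), Fmod (3.26, 0.0429), Nov (3.03, 0.0492), Tacr1 (2.54, 0.0347), Wdr95 (3.55, 0.0295), Tm7sf2 (1.29, 0.0215), Egr3 (1.6, 0.0388) and Btg2 (1.45, 0.0293). More negative were Gzma (-1.73, 0.0366), Mcm5 (-0.31, 0.0388), Ccnb1 (-0.38, 0.0413), Ccnb2 (-0.52, 0.0329), Tex11 (-2.96, 0.0373), Csn3 (-1.92, 0.0177), Kdm1b (-1.23, 0.0177), Rtkn2 (-1.04, 0.033), Adgrl3 (-2.06, 0.0435), Acsm3 (-2.02, 0.0396), Robo1 (-2.0, 0.0463) and Slc5a4a (-1.99, 0.0215).

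Single libraries lay far from the other 4 of their group in 25 of 454 tests by Dixon's criterion, which chance flags about 1 time in 20. At day 4, replicate 2 was highest for Cxcl9 (243.3 CPM) and Stab1 (138.9 CPM) and had the lowest skeletal muscle level (-2.04). Replicate 3 was lowest for Gzmk (0.07199 CPM), Cxcl16 (43.61 CPM) and Cx3cr1 (2.97 CPM), and replicate 5 for Fas (5.95 CPM). At day 7, replicate 1 was lowest for Socs1 (37.72 CPM), Cd4 (0.6178 CPM), Il18 (1.302 CPM), Cx3cr1 (9.184 CPM), Hpgds (3.54 CPM), Vegfa (200.4 CPM), Sox18 (2.822 CPM), Tie1 (7.898 CPM), Fabp4 (8.215 CPM) and the regulatory T cell level (0.983). It was highest for Hif3a (5.527 CPM) and Adgrl3 (1.102 CPM). Day 7 replicate 4 was highest for Apol11b (13.12 CPM) and the B cell and plasma cell level (1.74). Day 7 replicate 5 was highest for Gzmb (33.9 CPM) and Egr3 (6.048 CPM) and lowest for Fam159b (37.13 CPM) and Acsm3 (2.151 CPM).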

How the results depend on the processing

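Of the 186 genes that the naming rule chose, 0 of the 159 called ones changed sign under any alternative run. Of the 27 uncalled ones 10 did in at least 1 alternative, with no call there (Foxp3, Gbp2b, Ifng, Il10, Krt17, Mki67, Ncr1, Prf1, Socs1 and Sprr1b). The alternatives share libraries with the main fit that called the 159, so their kept signs give no separate support. Of the called ones, 107 kept their call without the 8 skin-rich libraries and 0 without the 12, where 3 against 2 unmasked libraries remained. Without the 12, 0 genes were called higher and 0 lower at day 7, and without the 8, 910 and 669. Leaving out 1 unmasked library gave 1344 to 2641 higher and 1356 to 2479 lower genes. Other normalisations, filters, tools, a fit to the 10 libraries alone and a skin covariate gave 1908 to 2485 higher and 1578 to 2300 lower genes.

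For the difference from vehicle, higher and lower counts were 269 and 204 without a filter, 985 and 737 by DESeq2, 187 and 100 in a fit to its own libraries, and 276 higher by limma-voom. They were 0 and 0 without the 12 and 73 and 52 without the 8 skin-rich libraries. Single omissions gave 71 to 1301 higher and 57 to 1724 lower. The difference from mXTX301 was 0 and 0 in each single omission, 5 and 7 by DESeq2, and 132 and 234 in a fit to its own libraries. The cause was not tested.

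Replicate numbers did not pair the libraries: same-numbered unmasked libraries correlated at 0.443, 0.411, -0.414, -0.291 and 0.783 over 2000 genes, and for 2 of 5 the closest library shared the number. With the replicate block 2174 genes were higher and 1669 lower at day 7, the difference from vehicle gave 390 and 308, and that from mXTX301 0 and 0. The unmasked libraries held 52.5 to 85.2 M counts; the limits set by depth and by 5 libraries a group were not compared.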
